A study of Mus musculus with 4 samples.

Results

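The genes described are the nuclear genes for the machinery of oxidative phosphorylation, 97 of the 32285 genes counted. They were chosen by symbol alone: every gene named Nduf, Uqcr, Atp5 or Sdh (a to d), or Cox4 to Cox8 followed by letters or digits, leaving out gene models and pseudogene names. By these names 38 belong to complex I, 4 to complex II, 8 to complex III, 18 to complex IV and 17 to complex V, and 12 are assembly factors (Ndufaf and Sdhaf). They were counted in single nuclei of the basolateral amygdala (BLA), a nucleus complex involved in emotional learning, from WT mice and from mice with the genotype label DISC-N, written DISC1-N in the series title. The labels do not describe the DISC1-N allele, its promoter or the cells that carry it. Mice of both genotypes were C57BL/6J, and tissue was taken 6 h after an intraperitoneal tamoxifen injection, which the WT mice received too. Both sides of the BLA were taken and 5 mice were combined per group. Each genotype had 2 libraries, replicate 1 and replicate 2, and whether these came from separate mice is not said, so the p-values below measure the spread between libraries, which may be technical. The series asks whether cells of the BLA are functionally abnormal in DISC1-N mice.

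Oxidative phosphorylation passes electrons from NADH and succinate through complexes I to IV to oxygen, and ATP synthase (complex V) uses the proton gradient that this builds. Most subunits are encoded in the nucleus, translated in the cytosol and imported, while a core set is encoded by mitochondrial DNA. All the complexes but complex II therefore draw on both genomes. In the brain most of this ATP pays for ion pumping, and several complex IV subunits exist as tissue isoforms.

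The 4 libraries held 37840301 to 48439711 UMIs (unique molecular identifiers, the counted molecules) in 4654 to 8381 barcodes. Nuclei were assigned to 8 classes by UMIs from marker lists such as Slc17a7 for excitatory neurons, Gad1 and Gad2 for inhibitory neurons, Aqp4 and Gja1 for astrocytes, Mog for oligodendrocytes, Pdgfra for their precursors and Csf1r for microglia. At least 75% of a nucleus's marker UMIs had to belong to 1 class, which 31.0% to 43.8% of the filtered nuclei met. The gate left 1331 excitatory neurons, 1380 inhibitory neurons, 3458 astrocytes, 2259 oligodendrocytes, 265 oligodendrocyte precursors, 1106 microglia, 101 endothelial cells and 53 mural cells. The vascular classes had under 20 nuclei in some libraries and are given as values without a test. Levels are CPM, UMIs per 1000000 UMIs of a class in a library, and 4 values in a row stand for WT replicate 1, DISC1-N replicate 1, WT replicate 2 and DISC1-N replicate 2. The 3' counts are not divided by length, so levels are not compared between genes, other than to choose which are named. Within a class, fewer nuclei of a subtype and less RNA per nucleus cannot be told apart in the summed counts.

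The summed level of the 97 genes was lowest in excitatory neurons and, among the 6 classes tested, highest in microglia. Excitatory neurons had 4664, 4396, 3186 and 2677 CPM, inhibitory neurons 7108, 6467, 4821 and 4069 CPM and astrocytes 8559, 7484, 7427 and 6157 CPM. Excitatory neurons lay under inhibitory neurons, and these under astrocytes, in each of the 4 libraries. Oligodendrocytes had 11898, 11336, 7898 and 6519 CPM, their precursors 9135, 9512, 6420.4 and 5471 CPM and microglia 14848, 14337, 11226 and 9354 CPM. Oligodendrocytes lay above astrocytes and under microglia in each library, whereas the precursors lay above astrocytes in both replicate 1 libraries and under them in both replicate 2 libraries. Endothelial cells ranged over 9634 to 12704 CPM and mural cells over 9646 to 14637 CPM. The ranges of neighbouring classes overlapped over the 4 libraries, so the order holds only within a library.

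**Figure D1:**
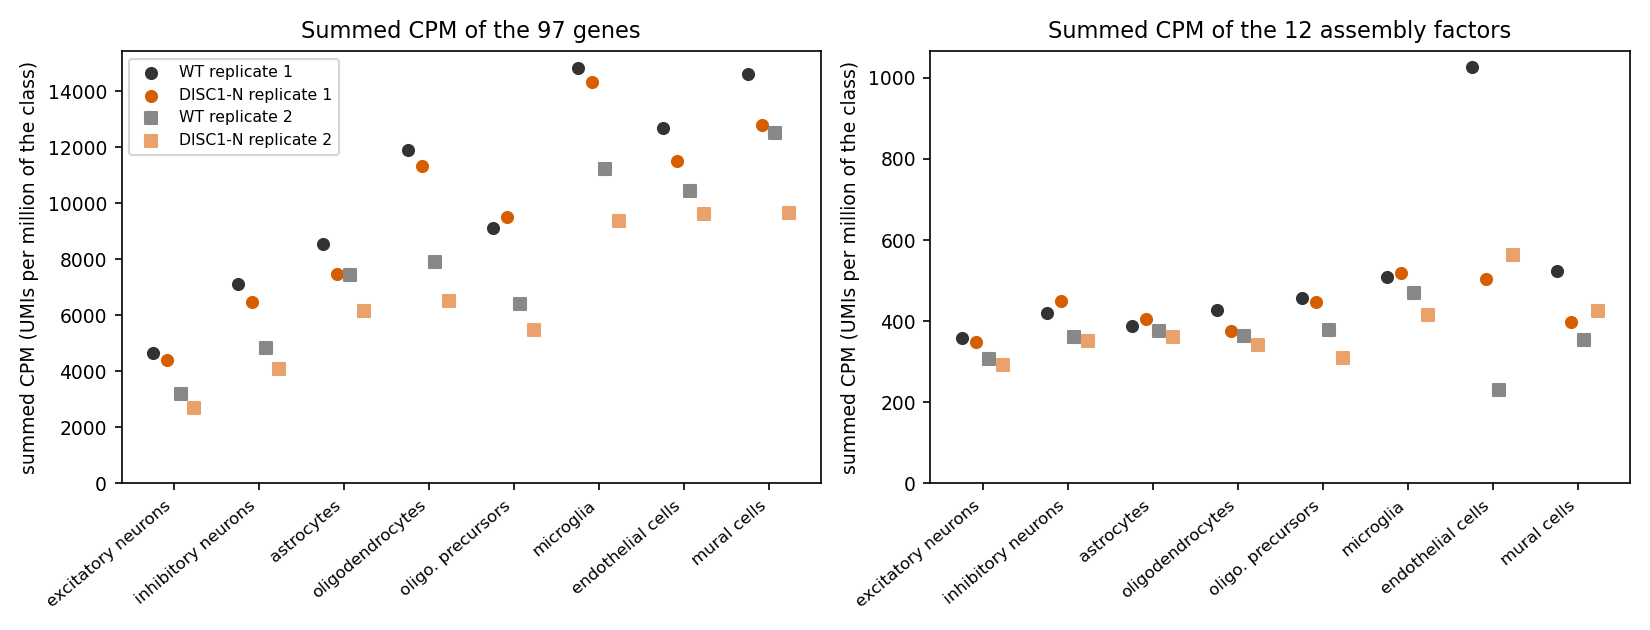
Summed CPM of the 97 genes (left) and of the 12 assembly factors (right) in each marker-gated class, 1 point per library (circles replicate 1, squares replicate 2, black or grey WT, orange DISC1-N). The left panel climbs from 2677 to 4664 CPM in excitatory neurons to 9354 to 14848 CPM in microglia, while the assembly factors range over 291 to 358 CPM and 415 to 518 CPM in these classes.

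This order ran against sequencing depth. The median nucleus held 8580.0 UMIs in excitatory neurons, 4201 in inhibitory neurons, 2049 in oligodendrocyte precursors, 1942 in astrocytes, 1386 in oligodendrocytes and 1062 in microglia. When the nuclei of a class were ranked by UMIs and divided into 3 equal groups, the shallow group had the highest and the deep group the lowest summed level in every class and library with enough nuclei. In excitatory neurons of WT replicate 1 the level was 6693 CPM in the shallow and 3808 CPM in the deep group, and in astrocytes of that library 14421 and 6024 CPM. Among nuclei of 2000 to 4000 UMIs, inhibitory neurons (8559.9, 8458, 5541 and 4825 CPM) lay under astrocytes (9921, 8955, 6814 and 5722 CPM) in each library. The window did not match the depth of this pair. The median nucleus in it held 3161.5 to 3377.5 UMIs in inhibitory neurons and 2410 to 2434 in astrocytes over the libraries. Oligodendrocytes in the window had 9578, 8313, 5877 and 4852 CPM, under astrocytes in each library, so the order of these glial classes turned. Excitatory neurons and microglia had too few nuclei in that window. Thinned to 1000 UMIs, excitatory nuclei kept a mean of 2.92 to 5.36 member UMIs over the libraries and microglia 8.48 to 14.5, with 0 to 7 and 26 to 199 nuclei per library left out as shallower. A random draw keeps each nucleus's own share on average, so thinning cannot take the part of depth out of these means. The part of depth in the class differences was not tested beyond these values.

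**Figure D2:**
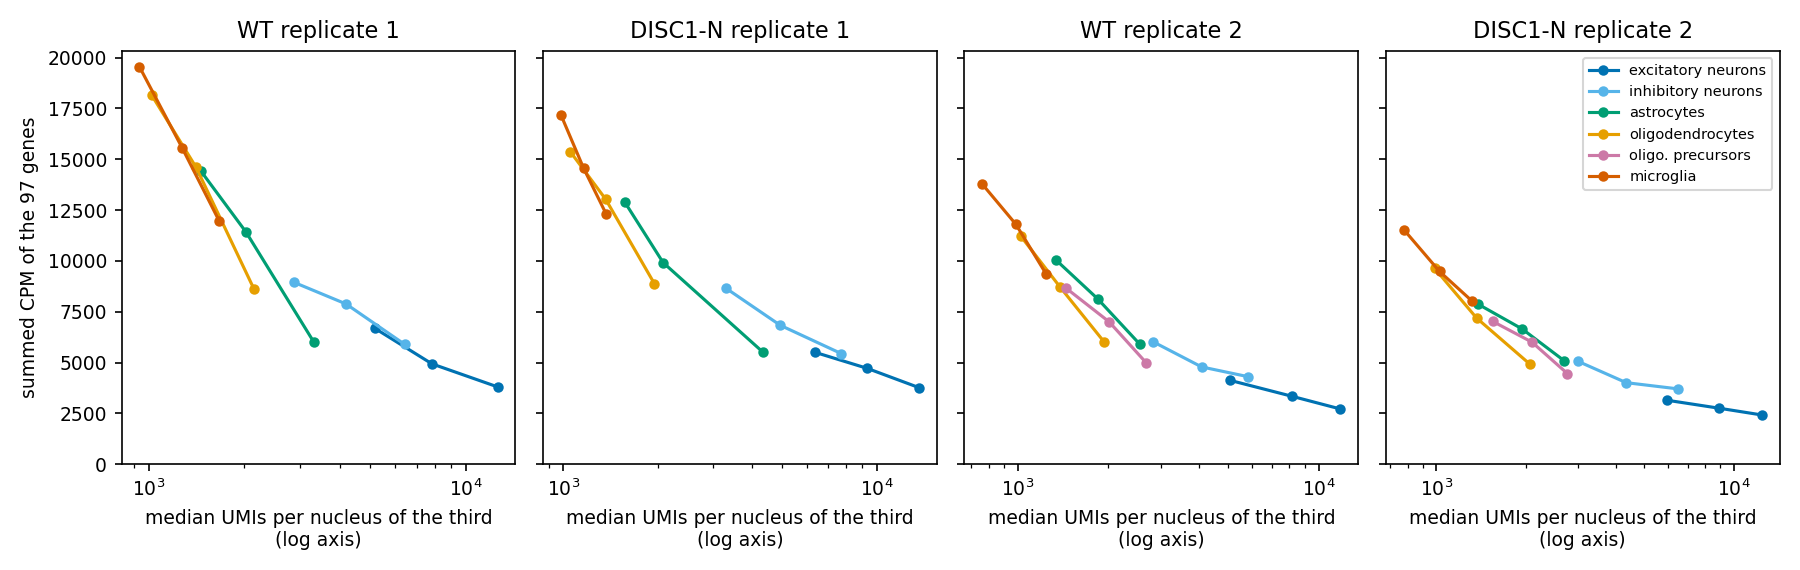
Summed CPM of the 97 genes in the shallow, middle and deep group of nuclei of each class, against the median UMIs per nucleus of the group (log axis), 1 panel per library; oligodendrocyte precursors are drawn only where nuclei sufficed. Every line falls from left to right, as from 6693 to 3808 CPM in excitatory neurons of WT replicate 1.

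The share of each complex in the subunit UMIs moved less than the totals. Complex I subunits, which take electrons from NADH, gave 38.8 to 40.9% in excitatory neurons and 36.5 to 38.2% in microglia by name. With Ndufa4, a protein found in complex IV, moved there, complex I gave 36.1 to 37.9% and 33.3 to 34.5%, and complex IV 22.6 to 26.5% and 26.8 to 28.2%. Complex II, which also belongs to the tricarboxylic acid cycle, gave 3.59 to 4.49% and 2.05 to 3.29%, complex IV (cytochrome c oxidase) by name 20.2 to 23.7% and 23.4 to 24.7%, and complex V 25.2 to 26.5% and 25.5 to 26.4%. The assembly factors, which help to build complexes I and II, summed to 358, 349, 307 and 291 CPM in excitatory neurons and 509, 518, 470.1 and 415 CPM in microglia. The subunits summed to 4307, 4047, 2879 and 2386 CPM and 14338, 13819, 10755 and 8939 CPM in these classes.

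Subunits of complexes II and III gave the following levels. Sdhb, the iron-sulphur subunit of complex II, ranged over 26.9 to 38.2 CPM in excitatory neurons, 36.8 to 48.1 in inhibitory neurons, 42.1 to 61.4 in astrocytes and 62.8 to 166 in microglia. Sdhd, a membrane anchor of complex II, ranged over 4.27 to 11.5, 8.78 to 21.9 and 15.1 to 22.1 CPM in the first 3 of these classes, and Uqcrq, a small complex III subunit, over 30.9 to 58.1, 44.6 to 80.1, 71.6 to 104 and 96.4 to 231 CPM in all 4. Excitatory neurons were lower than astrocytes for each of these (log2 differences of -0.61 ± 0.15, -1.07 ± 0.25 and -0.84 ± 0.13; edgeR adjusted p = 0.00146, 0.000617 and 6.62e-06). The same comparison gave -0.77 ± 0.13 for Ndufb9 of complex I, -1.11 ± 0.13 and -0.85 ± 0.14 for the complex IV subunits Cox6c and Cox7c, and -0.91 ± 0.14 and -0.91 ± 0.14 for Atp5f1, the b subunit of the ATP synthase stalk, and Atp5md, a small subunit. Microglia and astrocytes differed by 0.28 ± 0.14 in Cox6c (adjusted p = 0.105) and 0.43 ± 0.14 in Cox7c (adjusted p = 0.0140).

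Between the neuronal classes, 38 of 90 members tested were lower and 0 higher in excitatory than in inhibitory neurons (edgeR's quasi-likelihood test with the library as a term, Benjamini-Hochberg adjusted p under 0.05). Of all 12975 genes tested, 13.0% were lower and 13.9% higher in excitatory neurons. The median log2 difference was -0.41 for the members and 0.01 for all genes. Leading members here and for the next comparisons are those with a mean of at least 20 CPM in 1 of the classes compared. Cox6a2, below that level, is among the members fitted here but is described with the isoforms, without a p. Uqcrb, a small subunit of complex III, had 28.8, 33.0, 25.7 and 16.6 CPM in excitatory and 64.6, 61.5, 49.0 and 38.1 CPM in inhibitory neurons. These ranges did not overlap, and the log2 difference was -0.82 ± 0.16 (SE; adjusted p = 0.000309). The complex I accessory subunits Ndufa2 (-0.72 ± 0.18), Ndufa1 (-0.72 ± 0.19) and Ndufa13 (-0.69 ± 0.14) followed. Ndufa4, named for complex I but found in complex IV, had 118, 109, 95.9 and 58.8 CPM in excitatory and 221, 226, 158 and 107 CPM in inhibitory neurons, lower in each library (-0.67 ± 0.13, adjusted p = 0.000309). With counts scaled by library totals alone, without edgeR's TMM factors, the median of all genes moved to -0.20 and 69 members were lower. Leaving out WT replicate 2, DISC1-N replicate 2 or WT replicate 1 left 13, 18 and 24 lower.

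Against astrocytes, 79 of 90 members were lower and 1 was higher in excitatory neurons, and of all genes 32.0% were lower and 27.0% higher. The medians were -0.90 for the members and -0.08 for all genes. The lower members were 35 of 37 tested in complex I, 4 of 4 in complex II, 7 of 8 in complex III, 11 of 12 in complex IV and 17 of 17 in complex V. The largest differences were in Uqcrfs1, the Rieske iron-sulphur protein of complex III (-1.41 ± 0.18), in Ndufb11 of complex I (-1.33 ± 0.20), in Atp5e, the epsilon subunit of ATP synthase (-1.33 ± 0.15), and in Uqcrb (-1.31 ± 0.15). Among the assembly factors 5 of 12 were lower and Sdhaf3, which helps to mature complex II, was higher. Sdhaf3 had 22.5, 22.7, 32.4 and 23.6 CPM in excitatory neurons and 19.4, 19.6, 14.2 and 20.9 CPM in astrocytes, a difference of 0.62 ± 0.17 (adjusted p = 0.00247), and the ranges did not overlap.

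In inhibitory neurons 61 members were lower and 4 higher than in astrocytes, and of all genes 26.7% were lower and 21.6% higher. The member median was -0.47. The lower members were led by the assembly factor Sdhaf4 (-0.94 ± 0.23), Ndufb11 (-0.91 ± 0.21), Atp5e (-0.89 ± 0.15) and Atp5mpl, a small ATP synthase subunit (-0.86 ± 0.15). The higher members were Cox6a2 and the assembly factors Ndufaf5 (0.60 ± 0.17), Ndufaf6 (0.59 ± 0.17) and Sdhaf3 (0.54 ± 0.18). Cox6a2 stands in this count as a description only, since class by class it passed the low-count filter in inhibitory neurons alone. Ndufaf6 had 32.8, 42.8, 30.1 and 28.6 CPM in inhibitory neurons and 19.9, 22.7, 21.7 and 19.2 CPM in astrocytes, without overlap. The lower calls depended on the gate and the libraries. With nuclei at over 50% of marker UMIs, 1 member was lower, 4 were higher and the median was -0.08. Replicate 1 alone gave 22 lower and replicate 2 alone 73, and leaving out WT replicate 2 or DISC1-N replicate 2 gave 31 and 36.

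**Figure D3:**
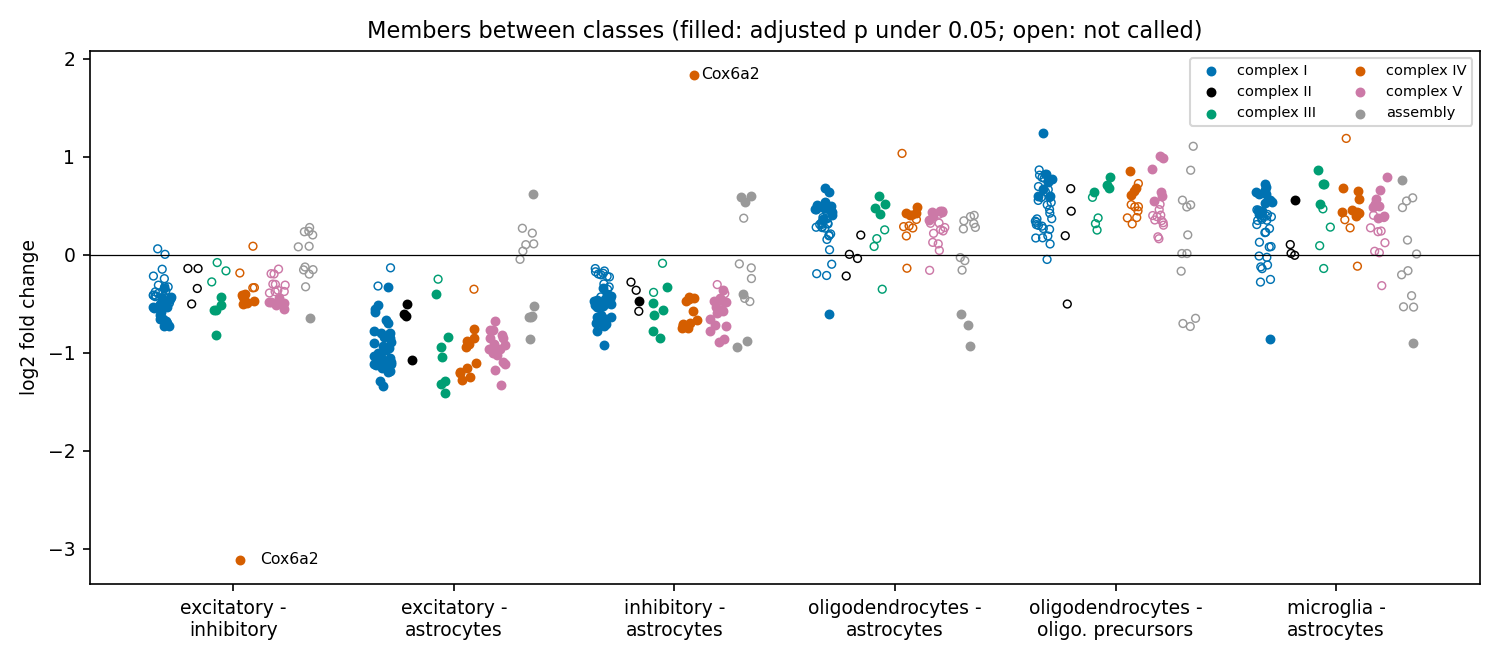
Log2 differences of the 90 tested members in the 6 comparisons between classes, 1 point per gene, coloured by complex (filled where the adjusted p is under 0.05, open where it is not). Subunits lie mostly below 0 where neurons are set against astrocytes and mostly above 0 for oligodendrocytes and microglia. The assembly factors spread to both sides. Cox6a2 stands at -3.11 and 1.84, and its fill is not read as a test.

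Oligodendrocytes had 29 members higher and 4 lower than astrocytes, and of all genes 21.8% were lower and 18.5% higher. The higher members were led by Ndufs6 (0.69 ± 0.19) and Ndufa3 (0.64 ± 0.18) of complex I, Uqcr10 of complex III (0.60 ± 0.16) and Ndufb4 of complex I (0.54 ± 0.17). The lower ones were the complex I assembly factors Ndufaf6 (-0.93 ± 0.23), Ndufaf5 (-0.72 ± 0.22) and Ndufaf4 (-0.60 ± 0.14), and Ndufs4, a complex I subunit whose loss causes encephalopathy in mice (-0.61 ± 0.13, adjusted p = 0.000442). Ndufs4 had 144, 119, 76.0 and 73.6 CPM in oligodendrocytes and 159, 156, 144 and 131 CPM in astrocytes. It was lower in each library, although the summed level of all members was higher.

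Against their precursors, oligodendrocytes had 21 members higher and 0 lower, and of all genes 11.8% were lower and 12.9% higher. The largest differences were in Ndufa11 of complex I (1.25 ± 0.29), Atp5d, the delta subunit of ATP synthase (1.01 ± 0.18), Atp5l (0.99 ± 0.20) and Atp5g2 (0.88 ± 0.25). This count fell to 7 higher with replicate 1 alone, 10 with DESeq2 and 5 without TMM factors. The gate at over 50% gave 5 higher and 4 lower. Leaving out 1 library gave 11 to 15 called. Microglia had 35 members higher and 2 lower than astrocytes, and of all genes 26.9% were lower and 21.3% higher. Those higher were led by Uqcr10 (0.87 ± 0.17), Atp5e (0.80 ± 0.16), Sdhaf3 (0.76 ± 0.24) and Uqcrb (0.73 ± 0.17). The lower ones were Ndufaf4 (-0.89 ± 0.18) and Ndufs1, an iron-sulphur subunit of complex I (-0.86 ± 0.18).

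The glial counts moved with the nuclei and libraries used, and the share of all genes called under each setting is not given beside them. With replicate 1 alone 56 members were higher and 3 lower in oligodendrocytes than in astrocytes, and with replicate 2 alone 8 and 9. Without nuclei above 3 times the median depth of their class, 16 were higher in oligodendrocytes and 13 in microglia, and with the gate at over 50% 65 and 64. Without TMM factors the median of all genes between microglia and astrocytes moved from -0.11 to 0.30, and 69 members were higher. Markers of other classes differed by replicate number in these nuclei: the 7 excitatory neuron markers summed to 329, 309, 117 and 103 CPM in astrocytes, 334, 286, 117 and 118 CPM in oligodendrocytes and 398, 295, 176 and 155 CPM in microglia. Their part in the glial values was not tested.

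The isoforms followed cell class in several cases. Cox6a2, the heart and muscle isoform of a complex IV subunit that has also been described in parvalbumin interneurons, is a gene of 3 exons (chr7:128205435-128206387, minus strand; GENCODE vM21 on mm10) within the span of Itgad on the other strand. It had 21.9, 14.3, 18.0 and 10.4 CPM in inhibitory and 2.12, 1.65, 1.46 and 1.00 CPM in excitatory neurons. The ranges did not overlap, and the log2 difference was -3.11 ± 0.40. Taken class by class, Cox6a2 passed the low-count filter in inhibitory neurons and in no other class, so its differences from other classes are given as a description, with no p. Its paralog Cox6a1, the isoform of most tissues, differed by -0.33 ± 0.17 (adjusted p = 0.174). Astrocytes had 2.84 to 5.84 CPM of Cox6a2, lower than inhibitory neurons in each library (1.84 ± 0.35). These values rest on 99 UMIs in inhibitory neurons, 18 in excitatory neurons and 36 in astrocytes. Oligodendrocytes (4.47 to 22.1 CPM) and microglia (4.49 to 28.8 CPM) overlapped inhibitory neurons, on 32 and 15 UMIs. Because no source gives the strand setting of the counting, reads of Itgad cannot be told apart from it.

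Among inhibitory nuclei, those without a UMI of Adarb2, a marker of interneurons from the caudal ganglionic eminence, had 34.5, 31.8, 46.5 and 22.8 CPM of Cox6a2. Those with at least 2 Adarb2 UMIs had 11.3, 3.50, 4.12 and 2.34 CPM. Median depths were 4480.0 to 5667 and 3915 to 4694 UMIs over the libraries. Divided by Foxp2, a transcription factor gene known from intercalated cells of the amygdala, the values were 23.6, 22.5, 30.4 and 16.2 CPM without and 15.6, 0, 3.86 and 1.17 CPM with at least 2 UMIs, where the 0 UMIs of DISC1-N replicate 1 allow up to 9.97 CPM. For both markers Cox6a2 was higher, in each library, in nuclei without a UMI than in nuclei with at least 2. The same held for Penk, with 28.4, 18.2, 22.9 and 12.6 CPM without and 6.46, 9.34, 6.38 and 5.39 CPM with at least 2 UMIs. For Sst it held in WT replicate 1 alone, with 24.1, 12.3, 20.6 and 8.65 CPM without and 6.16, 21.9, 22.1 and 16.9 CPM with. The values with at least 2 marker UMIs rest on few UMIs of Cox6a2. There were 6, 2, 6 and 3 for Adarb2, 5, 0, 4 and 1 for Foxp2, 1, 1, 3 and 2 for Penk and 1, 5, 8 and 6 for Sst. Nuclei with at least 2 Vip UMIs numbered 14, 13, 30 and 28 and held 0, 1, 0 and 0 UMIs of Cox6a2. The 0 UMIs allow up to 56.8, 30.2 and 28.5 CPM in WT replicate 1, WT replicate 2 and DISC1-N replicate 2. Nuclei without a Vip UMI had 25.4, 19.2 and 11.2 CPM in these libraries, so the 0 UMIs do not set the Vip nuclei apart. Nuclei with at least 2 Pvalb UMIs numbered 3, 0, 2 and 3 in the 4 libraries and held 3, 0, 7 and 1 UMIs of Cox6a2. These subsets were chosen after their values were seen and carry no test.

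**Figure D4:**
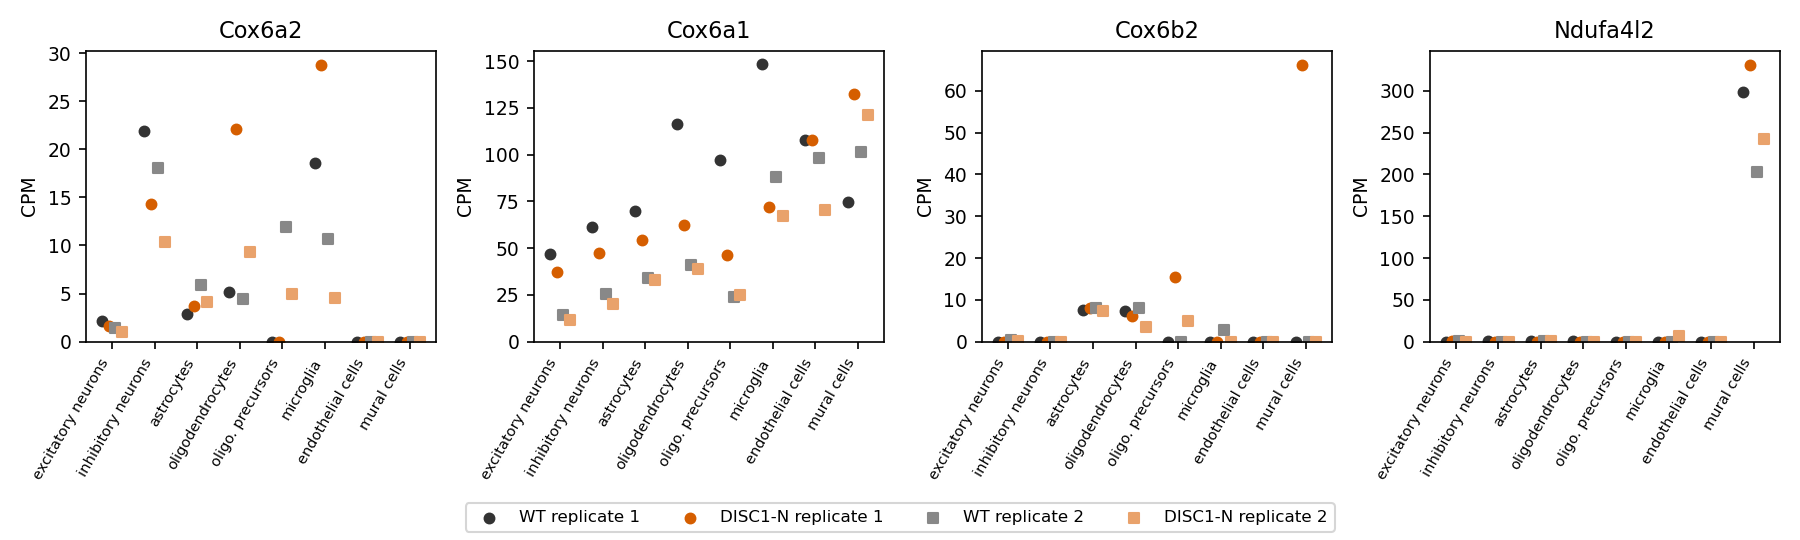
CPM of Cox6a2, Cox6a1, Cox6b2 and Ndufa4l2 by class, 1 point per library (circles replicate 1, squares replicate 2, black or grey WT, orange DISC1-N). Inhibitory neurons hold 10.4 to 21.9 CPM of Cox6a2 against 1.00 to 2.12 in excitatory neurons, Cox6a1 has UMIs in every class, and Ndufa4l2 reaches 202 to 331 CPM in mural cells.

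Ndufa4l2, a hypoxia-inducible paralog of Ndufa4, had 299, 331, 202 and 243 CPM in mural cells and at most 6.73 CPM in any other class and library. This is 17 of its 28 UMIs, from 53 nuclei. Cox6b2, known from testis, had 7.57, 7.98, 7.93 and 7.36 CPM in astrocytes (66 UMIs) and 7.29, 6.04, 8.05 and 3.38 CPM in oligodendrocytes (23 UMIs), against 2 UMIs in excitatory and 0 in inhibitory neurons, which allows up to 0.464 CPM there (3 UMIs of the class total; such limits cover counting error only). Its common paralog Cox6b1 was likewise lower in excitatory neurons than in astrocytes (-1.15 ± 0.13, adjusted p = 4.93e-08). Cox7b2, also known from testis, ranged over 6.59 to 9.29 CPM in excitatory neurons, 5.47 to 8.78 in inhibitory neurons and 7.36 to 11.8 in astrocytes, with 0 UMIs in microglia (up to 2.44 CPM). Cox4i2, an oxygen-responsive isoform, had 31 UMIs in all. Astrocytes held 20 of them (0.614 to 3.76 CPM) and mural cells 5, all in the DISC1-N libraries (133 and 182 CPM). The WT libraries had 8 and 20 mural nuclei with 13391 and 19756 UMIs, too few for 0 UMIs to set the genotypes apart. Cox7a1, the heart and muscle isoform, had 29 UMIs, 16 in astrocytes and 8 in excitatory neurons, the latter all in WT replicate 2. Cox8b (muscle) and Cox8c (testis) had 0 UMIs in gated nuclei, which allows up to 0.0909 CPM over all classes.

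Atp5g1, Atp5g2 and Atp5g3 encode the same mature c subunit of the ATP synthase ring. Each was lower in excitatory neurons than in astrocytes, with log2 differences of -0.77 ± 0.17, -0.85 ± 0.15 and -0.96 ± 0.17 (adjusted p = 0.000355, 3.51e-05 and 1.85e-05). None was called between the neuronal classes (adjusted p = 0.119, 0.428 and 0.103). Sdha, the catalytic flavoprotein of complex II, ranged over 51.6 to 97.1 CPM in excitatory and 76.9 to 139 CPM in inhibitory neurons. It was lower in excitatory neurons in each library, with a difference of -0.34 ± 0.16 that was not called (adjusted p = 0.126).

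In the genotype comparison, the summed level was lower in DISC1-N within both replicate numbers in every tested class except oligodendrocyte precursors. The difference in replicate 1 and replicate 2 was -5.77% and -16.0% in excitatory neurons, -9.03% and -15.6% in inhibitory neurons and -12.6% and -17.1% in astrocytes. It was -4.72% and -17.5% in oligodendrocytes, -3.44% and -16.7% in microglia and 4.13% and -14.8% in the precursors. Across replicate numbers the genotypes overlapped in each of these classes, since DISC1-N replicate 1 lay above WT replicate 2. Replicate 1 was 1.15 to 1.51 times replicate 2 in WT and 1.22 to 1.74 times in DISC1-N over the 6 classes.

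Without the replicate number in the fit, 0 members were called in each of the 6 classes, and 0.0% of all genes were. At an unadjusted p under 0.05 edgeR gave 2 members in inhibitory neurons (1.4% of all genes), 2 in microglia (0.789%) and 0 in excitatory neurons (0.933%), astrocytes (0.319%), oligodendrocytes (0.281%) and the precursors (1.2%). DESeq2 and limma-voom also called 0 in each class. The members with such a p were Ndufaf2 (0.60 ± 0.24) and Cox7a2 (-0.56 ± 0.25) in inhibitory neurons, and Sdhaf4 (-1.34 ± 0.53) and Ndufv1 (-1.14 ± 0.54) in microglia. Estimates were below 0 for 70 of 90 members in excitatory neurons (51.5% of all genes), 77 of 91 in inhibitory neurons (50.6%) and 77 of 91 in astrocytes (47.9%). They were below 0 for 72 of 89 in oligodendrocytes (50.4%), 33 of 50 in the precursors (52.1%) and 65 of 83 in microglia (50.9%). The member median was -0.16 in excitatory neurons, -0.17 in inhibitory neurons and -0.19 in astrocytes. Without WT replicate 1 or without DISC1-N replicate 2 that median turned to 0.08 and 0.18 in excitatory neurons and to 0.03 and 0.14 in inhibitory neurons, while in astrocytes it was -0.13 and -0.13. Without DISC1-N replicate 1 or without WT replicate 2 it was -0.56 and -0.38 in excitatory neurons, -0.46 and -0.37 in inhibitory neurons and -0.31 and -0.23 in astrocytes.

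Within replicate numbers, DISC1-N was lower in both for 45 of 90 members in excitatory neurons (29.3% of all genes), 48 of 91 in inhibitory neurons (27.5%) and 61 of 91 in astrocytes (29.2%). The counts were 45 of 89 in oligodendrocytes (27.7%), 15 of 50 in the precursors (26.3%) and 33 of 83 in microglia (26.4%). Both DISC1-N libraries lay under both WT libraries for 35 of 91 members in astrocytes (10.5% of all genes). The order also held for 3 members in excitatory neurons (11.7%), 11 in inhibitory neurons (12.4%), 3 in oligodendrocytes (9.55%), 1 in the precursors (12.2%) and 8 in microglia (11.3%). Astrocytes were also the class whose summed level differed least between replicate numbers, by 1.15 times in WT and 1.22 times in DISC1-N.

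**Figure D5:**
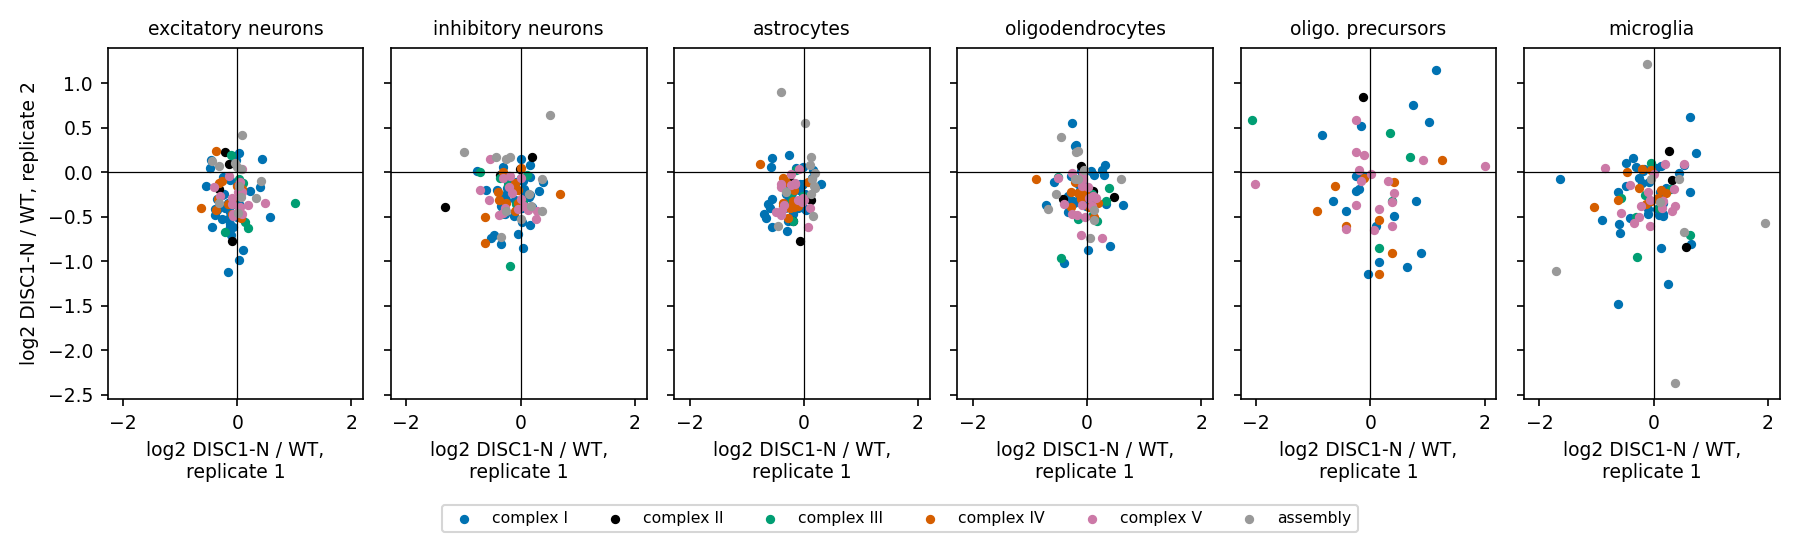
Log2 ratio of DISC1-N over WT CPM in replicate 1 (horizontal) and replicate 2 (vertical) for each tested member, 1 panel per class, coloured by complex. Points below and left of both lines were lower in DISC1-N in both replicate numbers, 61 of 91 in astrocytes and 45 of 90 in excitatory neurons.

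With the replicate number as a block, which leaves 1 residual degree of freedom per gene, 3 of 91 members were lower in DISC1-N inhibitory neurons and 0 higher (0.596% of all genes in either direction). At an unadjusted p under 0.05 there were 16 (7.87% of all genes), 15 of them lower. Cox7a2, the common isoform of a small complex IV subunit (chr9:79755361-79759878, minus strand), had 151, 97.7, 100.5 and 71.0 CPM. Both DISC1-N libraries lay under both WT libraries, and the estimate was -0.54 ± 0.14 (edgeR, adjusted p = 0.0258). Uqcr11, a small complex III subunit (chr10:80402997-80406830, minus strand), had 68.9, 60.4, 64.8 and 31.2 CPM and an estimate of -0.70 ± 0.18 (edgeR, adjusted p = 0.0335), with DISC1-N replicate 2 the lowest library and no overlap of the genotypes. Ndufc2, a membrane arm subunit of complex I (chr7:97400003-97407802, plus strand) that Gm16053 overlaps on the same strand, had 107, 84.5, 73.0 and 41.6 CPM and an estimate of -0.59 ± 0.16 (edgeR, adjusted p = 0.0453). Its genotypes overlapped across replicate numbers. In the fit without the block, where none of the 3 was called, leaving out 1 library moved the estimate over -0.79 to -0.31 for Cox7a2, -1.04 to -0.17 for Uqcr11 and -1.02 to -0.08 for Ndufc2. The value nearest 0 came without WT replicate 1 for Cox7a2 and without DISC1-N replicate 2 for Uqcr11 and Ndufc2.

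With the gate at over 50% and the block, Ndufc2 alone was called in inhibitory neurons (-0.48 ± 0.13, edgeR adjusted p = 0.0390; 0.599% of all genes), and Cox7a2 and Uqcr11 had adjusted p of 0.0777 and 0.0768. Ndufaf2, an assembly factor of complex I, had 53.6, 76.8, 43.8 and 68.4 CPM. It was higher in both DISC1-N libraries and was not called (0.61 ± 0.18, adjusted p = 0.0691). Cox6a2 had an estimate of -0.71 ± 0.33 in these neurons (adjusted p = 0.536).

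In excitatory neurons the blocked fit called 0 of 90 members (0.33% of all genes), and 15 had an unadjusted p under 0.05 (6.69% of all genes), 15 of them lower. Ndufa4 (chr6:11900292-11907497, minus strand) had the lowest p, with an estimate of -0.40 ± 0.12 (adjusted p = 0.151). Cox4i1, the common isoform of complex IV subunit 4, had 125, 96.8, 53.4 and 39.7 CPM (-0.37 ± 0.13, adjusted p = 0.305). Its step between replicate numbers was larger than that between genotypes. Cox7a2l, placed in complex IV by name, had 46.2, 29.7, 24.2 and 18.3 CPM (-0.51 ± 0.18, edgeR adjusted p = 0.391). Ndufa2 of complex I had 31.8, 23.5, 20.7 and 13.6 CPM (-0.51 ± 0.21, edgeR adjusted p = 0.582). With the gate at over 50%, the blocked fit called Ndufa4 (-0.36 ± 0.08, adjusted p = 0.0247) and Cox8a, the common isoform of complex IV subunit 8 (-0.31 ± 0.08, adjusted p = 0.0485), both lower, and 0.568% of all genes.

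In astrocytes the blocked fit called 0 of 91 members (0.0% of all genes), and 20 had an unadjusted p under 0.05 (6.31% of all genes), 20 of them lower. Atp5h, a peripheral stalk subunit of ATP synthase, had 213, 152, 164 and 120.2 CPM (-0.44 ± 0.11). Ndufa6 had 87.1, 55.2, 61.8 and 43.3 CPM (-0.55 ± 0.15), Ndufa11 86.1, 53.4, 71.0 and 51.1 CPM (-0.55 ± 0.15) and Ndufa8 64.4, 43.6, 53.4 and 34.8 CPM (-0.56 ± 0.16), all of complex I. None of these was called. In these 4 genes both DISC1-N libraries lay under both WT libraries, with an adjusted p of 0.709 each. Estimates were below 0 for 33 of 37 genes of complex I, 4 of 4 of complex II, 8 of 8 of complex III, 12 of 13 of complex IV, 16 of 17 of complex V and 4 of 12 assembly factors. The share below 0 over all genes was 48.6% in this fit.

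In oligodendrocytes, their precursors and microglia the blocked fit called 0 members (0.0388%, 0.126% and 0.0% of all genes). At an unadjusted p under 0.05 there were 5, 1 and 7 members (4.82%, 4.27% and 4.28% of all genes). Uqcrfs1 in oligodendrocytes had 83.3, 60.4, 66.2 and 33.8 CPM (-0.71 ± 0.23, adjusted p = 0.996). Ndufb5 of complex I ranged over 56.7 to 126 CPM (-0.51 ± 0.20) and Atp5h over 137 to 299 CPM (-0.35 ± 0.17). Ndufa6 had an estimate of -0.63 ± 0.23 and was not called either. In microglia Ndufv1, which carries the NADH binding site of complex I, had 78.1, 50.4, 56.1 and 20.2 CPM (-1.09 ± 0.46) and Sdhaf4 70.7, 21.6, 53.4 and 24.7 CPM (-1.27 ± 0.49; adjusted p = 0.999). The genotypes did not overlap for either microglial gene. In the precursors Ndufb10 had 41.6, 92.7, 35.9 and 79.6 CPM, higher in both DISC1-N libraries (1.13 ± 0.51, adjusted p = 0.995), and the estimate turned to -0.12 ± 0.20 with the gate at over 50%. A test of whether the genotype effect differed between excitatory neurons and each other class called 0 members in 5 comparisons (edgeR; of all genes 0.0% for inhibitory neurons, 0.108% for astrocytes, 0.0617% for oligodendrocytes, 0.0385% for the precursors and 0.0617% for microglia). At an unadjusted p under 0.05 there were 3 (3.29% of all genes), 1 (3.68%), 2 (3.92%), 3 (4.76%) and 5 (3.82%) of 90 members in the same order.

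Other lists stood beside the members in the blocked genotype fit. Cytosolic ribosomal protein genes, also short and abundant mRNAs, had medians of -0.14 in excitatory neurons (74 of 83 below 0) and -0.21 in astrocytes (77 of 84), where the members had -0.17 and -0.19. Per 100 ribosomal protein UMIs there were 96.6, 96.5, 107 and 108 member UMIs in excitatory neurons. The genotypes of a replicate number differed by -0.105% and 1.10% in this ratio. The mitochondrially encoded genes, whose products sit in the same complexes other than complex II, summed to 1259.6, 659.7, 526 and 211 CPM in excitatory neurons. This was a difference of -47.6% and -60.0%, and 9 of 12 were called lower. In astrocytes they differed by -36.3% and 11.6%, with 0 of 13 called. The 6 mitochondrial carriers and pores (Slc25a and Vdac genes) had 6 of 6 estimates below 0 in excitatory neurons and 6 of 6 in astrocytes. Tricarboxylic acid cycle enzymes had 11 and 6 of 18 below 0, and mitochondrial ribosomal proteins 43 of 77 and 47 of 77. Of all genes in this fit, 51.4% were below 0 in excitatory neurons and 48.6% in astrocytes.

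The step between replicate numbers was seen in both genotypes. In WT excitatory neurons 84 of 90 members were higher in replicate 1 (59.5% of all genes), with a median log2 ratio of 0.54 against 0.10 for all genes. In DISC1-N it was 81 of 90 (57.4%), with a median of 0.72. In astrocytes of WT and DISC1-N it was 69 and 69 of 91 (56.6% and 56.6%), with medians of 0.20 and 0.27. The size differed between members: in excitatory neurons of WT and DISC1-N, Cox6a1 was 3.27 and 3.21 times as high in replicate 1, Cox4i1 2.34 and 2.44 times and Cox6b1 1.35 and 1.49 times. The replicate number coincides with the Cell Ranger version in the file headers, and these cannot be told apart.

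Gene size ran beside these differences. The members tested between classes had a median span of 7.57 kb against 28.9 kb for all genes, and 4 exons against 8. Among genes under 10 kb, the median difference between excitatory neurons and astrocytes was -0.99 for 60 members and -0.38 for all 2679 genes. Among genes of 10 to 30 kb it was -0.64 for 24 members and -0.16 for all genes. Among genes of 30 to 100 kb it was 0.07 for 4 members and 0.06 for all genes, and over 100 kb -0.22 for 2 members and 0.36 for all genes. The blocked genotype median in excitatory neurons was -0.21 for members and -0.04 for all genes under 10 kb. The part of gene size in these differences was not tested further.

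The genes most like Ndufa4 and Cox6a2 in level were found by Pearson's r of log2(CPM + 1) over 8 classes and 4 libraries, 32 points that share libraries, among 8469 genes. For Ndufa4 they were Rab3a, a synaptic vesicle GTPase (r = 0.92), Slc25a4, an ADP/ATP carrier (0.92), the glycolytic gene Gapdh (0.91), Bex2 (0.90) and the elongation factor gene Eef1a1 (0.90). For Cox6a2 they were Dlx1as (0.83), which is antisense to the gate marker Dlx1, Ubash3b (0.81), Tmod1 (0.78), Kcnk13 (0.78) and Cds1 (0.78). Cox6a2 itself had a mean of 6.50 CPM, under the 20 CPM asked of the genes compared. It had 0 UMIs in endothelial and mural cells, which allows up to 25.1 and 46.4 CPM over these classes.

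The promoters of the members were searched for short motifs, as a description of sequence the values did not use. RefSeq promoters (GRCm38.p6, 250 bases before to 50 after the start) were matched by symbol for 79 of the 97 genes. The palindromic 10-base core of NRF1, a transcription factor known to activate respiratory chain genes, was held by 7 of these (8.86%) and by 264 of all 27025 promoters (0.977%): Ndufaf4, Ndufaf5, Atp5k, Cox6a1, Uqcrc1, Atp5g2 and Ndufa11. CCGGAAGT, a core of the ETS factors, was held by 6.33% of member and 4.00% of all promoters, CCAAT by 44.3% and 37.9%, and TATAAA by 11.4% and 14.2%, each on either strand. A match of letters is not a measured site. The 60 bases around the NRF1 core, its letters in capitals, are shown for the 5 genes with the core upstream of the RefSeq start, to show how it sits in members of different complexes. They run 5′ to 3′ on the gene's strand, at chr4:24897945-24898004 (plus strand, Ndufaf4), chr5:108434415-108434474 (minus strand, Atp5k), chr5:115349086-115349145 (minus strand, Cox6a1), chr15:102671055-102671114 (minus strand, Atp5g2), chr17:56717677-56717736 (plus strand, Ndufa11).
Ndufaf4: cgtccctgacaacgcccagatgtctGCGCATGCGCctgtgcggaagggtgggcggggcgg
Atp5k: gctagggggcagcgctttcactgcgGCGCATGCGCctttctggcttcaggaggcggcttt
Cox6a1: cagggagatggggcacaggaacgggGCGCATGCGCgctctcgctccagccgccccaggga
Atp5g2: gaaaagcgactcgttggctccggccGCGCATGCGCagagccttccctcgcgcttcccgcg
Ndufa11: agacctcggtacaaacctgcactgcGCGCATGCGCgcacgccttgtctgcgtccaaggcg
GENCODE vM21 places the 5′ end of Atp5k within the core and that of Atp5g2 upstream of it, so these cores lie upstream of the RefSeq start alone. Counted from the RefSeq start, the core ends 104 bases before the start in Ndufaf4, 41 in Atp5k, 153 in Cox6a1, 33 in Atp5g2 and 51 in Ndufa11. By the values above, Atp5g2 and Ndufa11 were higher in oligodendrocytes than in their precursors. Atp5l, whose promoter was searched and did not hold the core, was higher there too. Ndufaf4 was lower in oligodendrocytes and in microglia than in astrocytes. Whether the core goes with such differences was not tested.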

How the data were processed

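Per the labels' protocols, nuclei were run on the 10x 3' kit v3. The matrices hold UMI counts that the authors deposited without normalization. The submitters' processing notes give Cell Ranger 7.0.0 and mm10 for every library, but in the file headers only replicate 1 has 7.0.0, and replicate 2 of either genotype has 6.0.2. Intronic counting, strand and barcode calling: not given in the sources used here.

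Nuclei were kept at 500 genes or more and 5% mitochondrial UMIs or fewer. The highest Scrublet scores (scanpy 1.11.5) were removed at 0.8% per 1000 nuclei, 163 to 538 per library. Libraries shared 5 to 21 barcodes per pair. A class needed at least 3 UMIs from at least 2 of its markers and at least 75% of all marker UMIs, and 33.8% of excitatory, 29.1% of inhibitory and 51.7% of precursor nuclei lay between 75% and 80%. Counts summed by class and library were tested where every library had 20 nuclei or more, with edgeR 4.0.16 in R 4.3.3 (quasi-likelihood, TMM factors, filterByExpr at a minimum count of 10), Benjamini-Hochberg adjustment over all genes and calls at an adjusted p under 0.05. The tests were tried on simulated data. Genes were matched by identifier to GENCODE vM21 (32235 of 32285), where 12 members overlap another gene on their own strand and 36 on the other strand. Of the 97 members, 50 passed the low-count filter in all 6 tested classes and 5 in none (Ndufa4l2, Cox4i2, Cox7a1, Cox8b and Cox8c).

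The members and lists were chosen with earlier results of these data known. Genes were named by rule: the top 3 subunits of each complex by mean level over all 8 classes, the 4 members of lowest p in each genotype fit with and without the block, every called member there, the 4 largest called differences in each direction between classes, the isoforms, members without UMIs and the 5 genes most like Ndufa4 and Cox6a2. Some are given only within counts. The gate at over 50%, single replicate numbers, depth groups and the Cox6a2 subsets were added after the data were seen.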

Additional observations from a re-analysis of the deposited data

How the results depend on the processing

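Of the 255 alternative values of the counts and sums, 221 stayed within 1.5 times the count or 1 SD of the value reported. Those that stayed include the many genotype counts that were 0 and remained 0. The SD of a sum comes from 2 ratios. The 221 therefore do not describe how steady the counts between classes were, which are given below. With the replicate block, 3 members were called by genotype in inhibitory neurons. With the replicate block and the gate at over 50%, 2 were called in excitatory and 1 in inhibitory neurons. The block changed no other genotype count. With 2 pairs, whether the numbers pair the libraries was not decided from the data.

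Counts of members called between classes moved as follows, and the cause was not tested. Here and above, the share of all genes called under each alternative setting is not given. These counts therefore do not tell a move of the members from a move of all genes. Without TMM factors 69 were called between excitatory and inhibitory neurons, 5 between oligodendrocytes and their precursors and 71 between microglia and astrocytes. With doublet candidates kept, 60 were called between the neuronal classes, 66 between oligodendrocytes and astrocytes and 62 between microglia and astrocytes. Without nuclei above 3 times the median depth, the oligodendrocyte and microglia comparisons with astrocytes gave 20 and 17. With the gate at over 50%, inhibitory neurons gave 5, oligodendrocytes 69 and microglia 69 against astrocytes, and oligodendrocytes 9 against their precursors (4 of them lower). With class by replicate terms the neuronal comparison gave 63 and oligodendrocytes against astrocytes 58. Replicate 1 alone gave 24 for inhibitory neurons and 59 for oligodendrocytes against astrocytes and 7 against the precursors, and replicate 2 alone 17 for oligodendrocytes against astrocytes. The neuronal comparison gave 24 with no low-count filter, and DESeq2 gave 10 for oligodendrocytes against precursors. Leaving out 1 library gave 13 to 34 between the neuronal classes, 33 to 65 for inhibitory neurons and 17 to 31 for oligodendrocytes against astrocytes, and 11 to 15 against the precursors.

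As a mean of each nucleus's own share, the log2 ratio of summed CPM in excitatory neurons was -0.29. Genotype estimates turned for Ndufa3 in excitatory neurons at 90% of marker UMIs (0.17). In the precursors with the gate at over 50%, Atp5g1 turned (-0.18, and -0.19 with the replicate block), as did Ndufb10 (-0.20 and -0.12). Leaving out 1 library moved Ndufa4 in excitatory neurons over -0.79 to 0.00433, Cox4i1 there over -1.07 to 0.29, and in oligodendrocytes Cox6a1 over -1.13 to 0.21 and Ndufa6 over -1.70 to 0.10. Endothelial and mural cells had too few nuclei for any fit, and the 90% gate was not run for the precursors or between classes. Isoforms such as Cox6a2 rest on few UMIs, and small differences in them were not detectable at this depth.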
